A study of Mus musculus with 10 samples.

Results

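Pericytes and other mural cells of mouse ear skin were picked out of 2 droplet single-cell RNA-Seq libraries of sorted endothelial cells (ECs) by their transcripts. A barcode was kept when at least 500 genes were detected and no more than 10% of its unique molecular identifiers (UMIs, each counting 1 captured RNA molecule) came from mitochondrial genes. A kept barcode was called mural when it held at least 5 UMIs summed over *Pdgfrb*, *Kcnj8*, *Abcc9* and *Vtn*, no more than 1 UMI of *Prox1*, the lymphatic endothelial transcription factor, and no more than 10 UMIs of *Col1a2*, a fibroblast collagen. This rule found 231 mural barcodes among 6401 kept barcodes and 9016 deposited barcodes. They numbered 109 of 3438 in the IgG library (3.17%, exact binomial 95% interval 2.61 to 3.81) and 122 of 2963 in the Ang2 Ab library (4.12%, 3.43 to 4.90). The intervals overlapped, and all intervals given here cover counting error only.

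Both libraries came from ear skin of WT C57Bl/6j pups that were given either mouse IgG1 (IgG) or a blocking antibody against angiopoietin-2 (Ang2 Ab), a ligand of the endothelial Tie2 receptor. The dose was 20 mg/kg every 3 days from P16 to P21, and the question was what blocking Ang2 changes in the vessels of the skin, the lymphatic ones above all. Live cells were sorted for CD31, an endothelial surface protein that pericytes are not known to carry, so the mural barcodes are the cells that passed this sort and not a sample of all skin pericytes. The labels give the age as P1-P21 and the sex as male. The number of pups in each library was found neither in the labels nor in the main text of the paper. The title of the Ang2 Ab library carries the word control, so its treatment label was followed. Each condition had 1 library. No test between conditions is therefore possible, and a difference between the antibodies cannot be told apart from a difference between 2 libraries.

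Mural cells lie on the outside of blood vessels within the basement membrane they share with the endothelium. Pericytes cover capillaries and venules, are recruited by endothelial PDGF-B through their receptor PDGFRβ, and make angiopoietin-1, the activating ligand of Tie2. Vascular smooth muscle cells cover arterioles, carry a contractile apparatus of smooth muscle actin and myosin, and respond to Notch ligands of the endothelium through Notch3. Initial lymphatic capillaries have few or no mural cells.

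The IgG library held 42337184 UMIs and the Ang2 Ab library 31720670 UMIs. The mural barcodes held 1332990 and 1253094 of these, with a median of 11324 UMIs per barcode in IgG (range 880 to 40148) and 9160 in Ang2 Ab (range 790 to 41153). The other kept barcodes, 3329 and 2841 in number, had medians of 9857 and 7883. Of the barcode sequences, 5 occurred in both libraries, and 0 of these was mural. Although both libraries were labelled male, *Xist*, the RNA of the inactive X chromosome, was found in 57 mural barcodes of IgG and 47 of Ang2 Ab, and Y-linked transcripts in 47 and 64. Both kinds were found together in 7 and 6 mural barcodes. Barcodes with *Xist* and barcodes with Y-linked transcripts were thus largely different ones, which goes against the label, and the part of this in the results was not tested.

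The mural label rests on the markers *Pdgfrb*, *Rgs5*, *Kcnj8*, *Abcc9* and *Notch3*. *Pdgfrb*, *Kcnj8* and *Abcc9* are genes of the rule, so that only *Rgs5* and *Notch3* check the label. All 5 were found in 66 of the 109 mural barcodes in IgG and in 68 of the 122 in Ang2 Ab, counts that the rule partly fixes. *Rgs5*, a regulator of G protein signaling that marks pericytes and was not used by the rule, was found in every mural barcode. It had a median of 102 UMIs per barcode in IgG (range 1 to 421) and 76 in Ang2 Ab (range 1 to 447), and 104 and 111 mural barcodes held at least 10. *Notch3*, also unused by the rule, had a median of 6 UMIs in both libraries (ranges 0 to 32 and 0 to 36). *Pdgfra*, a fibroblast receptor, was found in 0 of 109 and 0 of 122 mural barcodes, which allows a share of barcodes with a UMI of up to 2.75% and 2.46%. In kept barcodes with over 10 *Col1a2* UMIs and a mural sum under 5, which were deeper (medians of 19097 and 17469 UMIs), it had a UMI in 50.4% and 41.2%.

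The 4 genes of the rule were seldom all needed. Each of the 4 had a UMI in 67 mural barcodes of IgG and 69 of Ang2 Ab, whereas 2 and 6 mural barcodes passed on 1 gene alone. Their summed UMIs ranged from 5 to 159 with a median of 22 in IgG, and from 5 to 134 with a median of 16 in Ang2 Ab. Barcodes just inside the threshold, at a sum of 5, numbered 5 and 7 and had median *Rgs5* counts of 11 and 16 UMIs, while those just outside, at a sum of 4, numbered 9 and 14 and had medians of 7 and 16. Of 200 kept barcodes in IgG and 255 in Ang2 Ab that passed the mural sum, the limit on *Prox1* removed 9 and 25. The limit on *Col1a2* removed a further 82 barcodes of IgG and 108 of Ang2 Ab. These had median *Rgs5* counts of 110 and 82 UMIs, held *Pdgfra* in only 14 and 16 cases, and were counted with the other kept barcodes.

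The values that chose the mural barcodes are given first, in UMIs per 1000000 UMIs of the set (CPM) and as a description. *Pdgfrb*, the PDGF-B receptor, stood at 624 CPM in the IgG and 663 CPM in the Ang2 Ab mural barcodes, 17.0- and 11.3-fold the level of the other kept barcodes. *Kcnj8* and *Abcc9* encode the pore Kir6.1 and the sulfonylurea receptor SUR2 of one vascular ATP-sensitive potassium channel, and lie next to each other on chromosome 6 (chr6:142564837-142571614 and chr6:142587862-142702315, GRCm38, both on the minus strand). *Kcnj8* stood at 729 and 603 CPM and *Abcc9* at 671 and 658 CPM, between 9.43- and 21.3-fold the other kept barcodes. *Vtn*, which encodes the adhesion protein vitronectin (chr11:78499091-78502324, plus strand), stood at 700 and 630 CPM, 31.0- and 17.3-fold.

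Levels of genes outside the rule follow, again as a description. *Rgs5* (chr1:169655501-169695813, plus strand) stood at 9185 CPM in IgG and 8501 CPM in Ang2 Ab against 429 and 609 CPM in the other kept barcodes. *Notch3* (chr17:32120820-32166852, minus strand) stood at 563 and 699 CPM, 19.8- and 15.6-fold the other kept barcodes. *Myh11*, the smooth muscle myosin heavy chain (chr16:14194535-14291372, minus strand), stood at 560 and 832 CPM, 37.4- and 22.9-fold. *Acta2*, smooth muscle actin (chr19:34241090-34255590, minus strand), stood at 2493 and 2437 CPM, 25.7- and 12.7-fold. Among the 20 genes with the highest folds were *Nrip2*, a nuclear receptor interacting protein (63.5- and 25.5-fold), *Tesc*, the calcium-binding tescalcin (49.5- and 20.3-fold), *Casq2*, calsequestrin of the calcium store (40.0- and 24.5-fold), and *Lmod1*, the actin nucleator leiomodin (32.0- and 16.3-fold). The same 20 held the olfactory receptor gene *Olfr558* (30.0- and 23.1-fold) and the T-box transcription factor gene *Tbx2* (25.6- and 20.2-fold). For each of these 10 genes the fold was lower in Ang2 Ab, and its level in the other kept barcodes, among them the barcodes removed on *Col1a2*, was higher there.

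**Figure D1:**
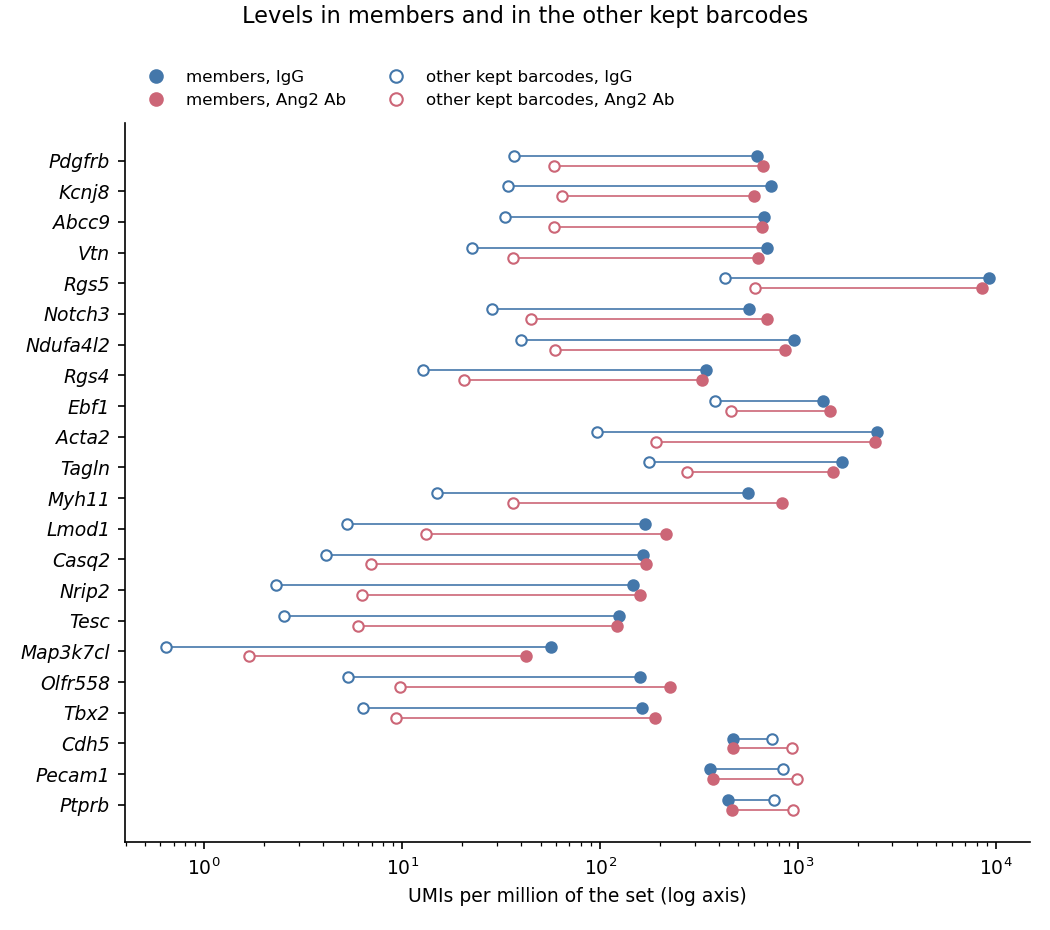
Level of selected genes in the mural barcodes (members, filled circles) and in all other kept barcodes (open circles) of the IgG (blue) and Ang2 Ab (red) libraries, in CPM on a log axis. Mural genes such as *Rgs5* (9185 and 8501 CPM) lie to the right of the open circles, and the endothelial genes *Cdh5*, *Pecam1* and *Ptprb* to the left, within a few-fold.

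Of 6948 genes that averaged 20 CPM or more over the mural and the other kept barcodes of both libraries, 6.48% were at least 2-fold above the other kept barcodes in both and 6.66% at least 2-fold below. These shares are set beside the gene lists as a description only, since the barcodes were chosen by their transcripts. Above 2-fold were 16 of 20 pericyte genes outside the rule, 13 of 14 contractile smooth muscle genes, 9 of 10 potassium and calcium channel genes (the rule genes *Kcnj8* and *Abcc9* among them) and 11 of 16 genes of vasoactive receptors and cyclic nucleotide signaling. *Ednra*, the endothelin A receptor, was 18.2- and 12.5-fold higher, *Agtr1a*, an angiotensin II receptor, 19.1- and 12.0-fold, *S1pr3*, a sphingosine-1-phosphate receptor, 20.8- and 15.2-fold, and *Cacna1c*, the pore of the L-type calcium channel, 22.0- and 15.2-fold. Of the 18 basement membrane genes, which the endothelium also makes, 2 were above 2-fold, and of 11 Notch pathway genes 3 were.

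The share of barcodes with a UMI depends on depth, so each barcode was also thinned to 2000 UMIs. This left out 5 and 9 mural barcodes and 410 and 445 of the others that were shallower. *Rgs5* then had a UMI in 99.0% of mural barcodes of IgG and 98.2% of Ang2 Ab against 11.2% and 15.3% of the others (100% against 24.0% and 28.3% before thinning). *Notch3* had one in 57.7% and 69.9% against 2.40% and 3.42% (87.2% and 91.8% against 4.54% and 6.2% before thinning). Free RNA from lysed cells can put such UMIs in any droplet. In kept barcodes with no UMI of the 4 rule genes, 2870 and 2344 in number with median depths of 9267.5 and 7081.5 UMIs, *Rgs5* was found in 20.7% and 23.8% before thinning and at a median of 0 UMIs, with levels of 67.3 and 90.9 CPM.

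Marker transcripts of most other cell types were few. The 8 leukocyte markers summed to 4 UMIs in each library (3.0 and 3.19 CPM), with *Ptprc*, which encodes CD45, *Cd3e*, *Cd52*, *Laptm5* and *Lyz2* at 0 in IgG. The 7 lymphatic endothelial markers stood at 116 and 69.4 CPM against 7928 and 5023 CPM in the other kept barcodes, and all 7 were at least 2-fold below them, where the rule itself limits *Prox1*. Keratinocyte markers stood at 29.3 and 27.9 CPM, Schwann cell markers at 6.00 and 7.98 CPM and melanocyte markers at 8.25 and 16 CPM. The 7 fibroblast markers stood at 775 and 942 CPM, with *Col1a2* the most abundant, against 2027 and 1966 CPM. That difference is largely fixed by the rule, which limits *Col1a2* and puts the removed barcodes in the reference. Erythroid genes stood at 12101 CPM in IgG and 182 CPM in Ang2 Ab, and 1 IgG barcode held 14155 of these UMIs, 87.8% of the library's mural total, while over 50 erythroid UMIs were found in 4 mural barcodes of IgG and 1 of Ang2 Ab.

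Endothelial transcripts were found in a large part of the mural barcodes. The 8 endothelial markers, among them *Cdh5* (VE-cadherin) and *Pecam1* (CD31, the protein of the sort), summed to 2318 CPM in the IgG mural barcodes (exact Poisson 95% interval 2237 to 2401) and 2335 CPM in Ang2 Ab (2251 to 2421), against 5663 and 6037 CPM in the other kept barcodes. Their distribution over the barcodes was uneven. No more than 2 endothelial UMIs were found in 56 of 109 mural barcodes of IgG (51.4%, 41.6 to 61.1) and 69 of 122 of Ang2 Ab (56.6%, 47.3 to 65.5), called endothelial-poor here. At least 10 were found in 38 (34.9%, 26.0 to 44.6) and 34 (27.9%, 20.1 to 36.7), called endothelial-rich, which left 15 and 19 between. The limits of 2 and 10 UMIs cut a range and name no cell type.

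**Figure D2:**
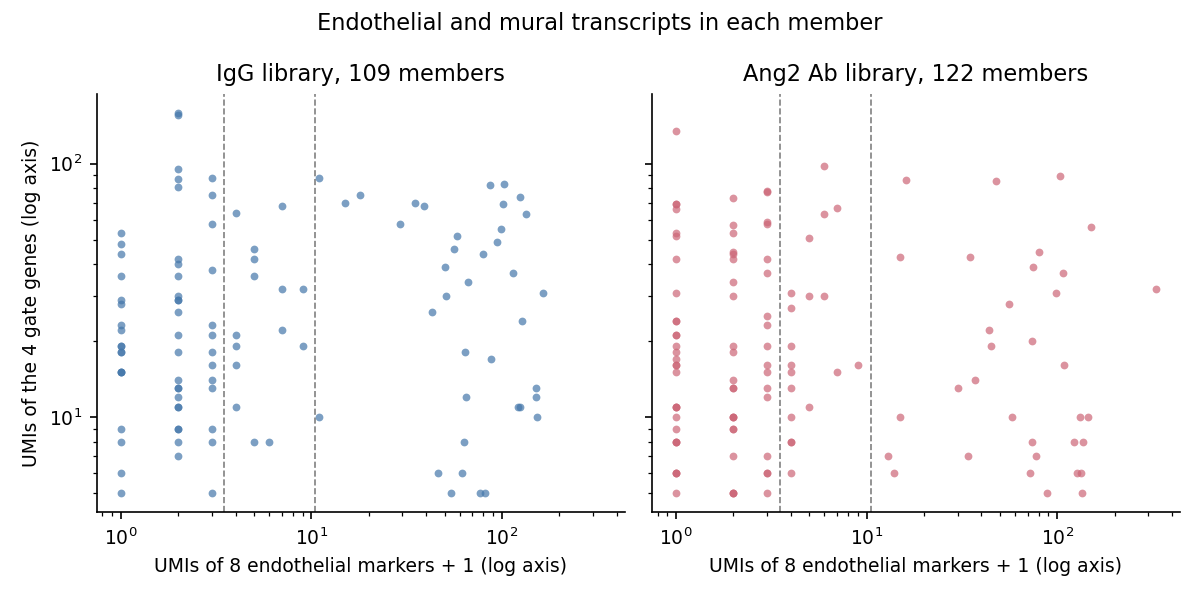
UMIs of the 8 endothelial markers plus 1 (log axis) against UMIs of the 4 rule genes (log axis) in each mural barcode (member), IgG on the left and Ang2 Ab on the right. Dashed lines part the endothelial-poor (at most 2 UMIs; 56 and 69 barcodes), the in-between (15 and 19) and the endothelial-rich barcodes (at least 10; 38 and 34).

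The endothelial-rich barcodes carried about as many endothelial UMIs as the other kept barcodes and had more UMIs in all. Their median endothelial count was 70.5 UMIs in IgG and 73.5 in Ang2 Ab, against 59 and 52 in the other kept barcodes. Per 10000 UMIs it was lower, with medians of 40.8 and 46.9 in the rich and 63.7 and 70.2 in the other kept barcodes. The median depth of the rich barcodes was 17501 and 15877.5 UMIs, against 9247.5 and 8028 in the endothelial-poor barcodes. *Rgs5* per 10000 UMIs had a median of 61.6 and 38.0 in the rich and of 103.7 and 100.8 in the poor barcodes. The summed rule genes per 10000 UMIs had medians of 18.8 and 10.2 in the rich and of 31.2 and 38.0 in the poor barcodes. As a gauge of free endothelial RNA, kept barcodes with over 10 *Col1a2* UMIs and a mural sum under 5, 113 and 85 in number, had medians of 2 and 1 endothelial UMIs at depths of 19097 and 17469. Of these, 12 and 8 held at least 10 endothelial UMIs, with maxima of 132 and 148. *Xist* and Y-linked transcripts occurred together in 5 of 38 and 4 of 34 rich barcodes, in 1 of 56 and 1 of 69 poor ones, and in 5.32% and 3.56% of the other kept barcodes. Whether the rich barcodes were droplets of 2 cells, mural cells with free endothelial RNA or ECs with free mural RNA was not tested. No doublet caller was run on them.

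Levels of some endothelial genes also differed between these classes. *Fabp4*, a fatty acid binding protein of capillary ECs and of adipocytes, stood at 8132 and 9740 CPM in the rich and 1249 and 1022 CPM in the poor barcodes, with *Adipoq*, *Cidec*, *Lep* and *Plin1* of the adipocyte list at 0 in IgG and *Lep* and *Plin1* at 0 in Ang2 Ab, where the list held 6407 UMIs and *Fabp4* 6405 of them. *Pdgfb*, the recruiting ligand, stood at 293 and 340 CPM in the rich and 50.3 and 71.9 CPM in the poor barcodes. *Angpt2*, which tip and lymphatic ECs are known to make, went the other way, at 35.9 and 64.0 CPM in the rich and 133 and 148 CPM in the poor barcodes. *Igfbp3*, which encodes a binding protein of insulin-like growth factors, stood at 417 and 283 CPM in the rich and 54.3 and 41.6 CPM in the poor barcodes. Ratios between the antibodies are therefore also given for the endothelial-poor barcodes for the lists and most of the genes described below.

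Within the endothelial-poor barcodes, contractile genes ranged widely. The summed share of UMIs in 18 contractile smooth muscle genes was above 1% in 27 of 56 barcodes of IgG (48.2%, 34.7 to 62.0) and 38 of 69 of Ang2 Ab (55.1%, 42.6 to 67.1), called contractile-high, and lower in 29 and 31, called contractile-low. The limit of 1% was set after the values were seen and cuts a continuous range, with 11 and 21 barcodes between 0.75% and 1.5%. Median depths were 11457 UMIs in the high and 6214 in the low barcodes of IgG, and 9191.5 and 6715 in Ang2 Ab. *Acta2* had medians of 50 and 24.5 UMIs per barcode in the high and 0 in the low barcodes, and *Myh11* medians of 11 and 9 against 0, as the split fixes. *Cnn1*, which encodes the smooth muscle protein calponin, was nearly absent, with 5 UMIs in 1 mural barcode of IgG and 22 UMIs in 2 of Ang2 Ab.

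The level of *Rgs5* was close on both sides of the split, at 13789 CPM in the high and 11945 in the low barcodes of IgG and 10866 and 11824 in Ang2 Ab. The rule genes, those of the potassium channel among them, were not evenly spread. *Kcnj8* stood at 395 CPM in the high and 1871 CPM in the low barcodes of IgG (4.73-fold higher in the low) and at 378 and 1629 CPM in Ang2 Ab (4.30-fold). Its median was 1 UMI per barcode in the high and 12 in the low barcodes of IgG, and 1 and 8 in Ang2 Ab. *Abcc9* stood at 309 and 1720 CPM in IgG (5.58-fold) and 405 and 1676 CPM in Ang2 Ab (4.13-fold), with medians of 2 and 7 and of 1 and 9 UMIs. *Pdgfrb* stood at 627 CPM in the high and 1193 in the low barcodes of IgG, and at 742 and 1323 in Ang2 Ab. *Vtn* stood at 415 and 1817 CPM in IgG and at 533 and 1276 in Ang2 Ab. All of these are genes of the rule and the low barcodes were shallower. The part of either fact in these differences was not tested.

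**Figure D3:**
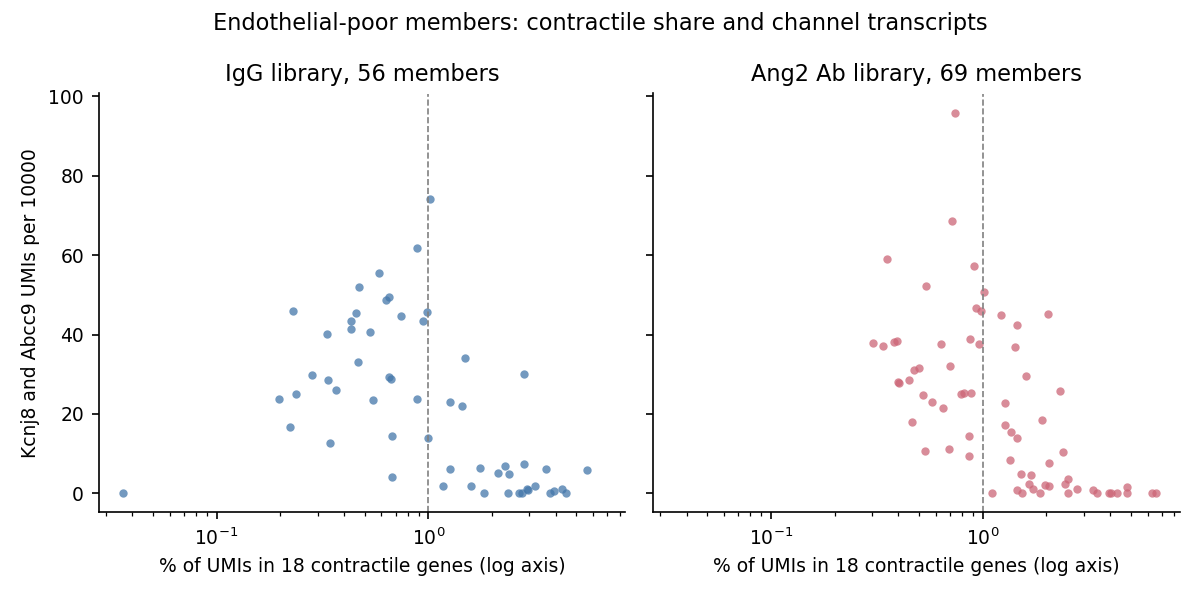
Percent of UMIs in 18 contractile genes (log axis) against *Kcnj8* and *Abcc9* UMIs per 10000 in each endothelial-poor mural barcode (member), IgG left and Ang2 Ab right, with the limit of 1% dashed. Most barcodes above 2% lie near 0 on the vertical axis, whereas those below 1% spread from 0 to over 60.

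Of 1623 genes outside the contractile list with at least 100 UMIs in the endothelial-poor barcodes, and no more than 20% of them in 1 barcode, 61 (3.76%) were at least 2-fold higher in the contractile-high and 63 (3.88%) at least 2-fold lower in both libraries. Besides *Kcnj8* and *Abcc9*, the contractile-low barcodes had more of *Steap4*, a metalloreductase gene (219 against 968 CPM in IgG, 4.43-fold; 191 against 1157 in Ang2 Ab, 6.07-fold), of *Agtr1a* (5.63- and 5.80-fold) and of *Plat*, the tissue plasminogen activator (16.3- and 7.75-fold). *Cxcl12*, a chemokine gene, stood at 331 against 909 CPM and 530 against 1126 CPM.

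Of the 14 basement membrane genes measured in this split, 7, the rule gene *Vtn* among them, were at least 2-fold higher in the contractile-low barcodes of both libraries and 1 in the contractile-high. Of 14 interstitial matrix genes, 8 were at least 2-fold higher in the low barcodes and 0 in the high. The summed fibroblast markers also stood higher in the low barcodes, at 1602 against 900 CPM in IgG and 1577 against 1046 CPM in Ang2 Ab. Of 3 measured fibroblast markers, 1 was at least 2-fold higher in each class. Chondrocyte markers had 38 UMIs in the low and 0 in the high barcodes of IgG, and 3 and 2 in Ang2 Ab. In the IgG low barcodes, all 20 UMIs of *Col2a1*, a cartilage collagen gene, lay in 1 barcode. The part of these cell types in the matrix difference was not tested. *Lamb1*, the laminin β1 chain, was 19.5- and 11.0-fold higher in the contractile-low barcodes, with 6 UMIs in the high and 70 in the low of IgG and 12 and 76 in Ang2 Ab. *Col4a1*, a type IV collagen chain, stood at 1970 against 4822 CPM in IgG and 1961 against 4929 in Ang2 Ab. *Col15a1*, a collagen of the outer basement membrane, was 4.07- and 4.8-fold higher in the low barcodes. *Lama5*, the laminin α5 chain, had too few UMIs to be counted with the 14, with 33 and 56 UMIs in the high barcodes, in 16 of 27 and 22 of 38 of them, and 0 UMIs in the low ones. *Lamb2*, the laminin β2 chain, was 2.26- and 2.18-fold higher in the high barcodes.

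Of 4 secreted growth factor and cytokine genes measured, 1 was at least 2-fold higher in each of the classes, *Kitl*, the ligand of the KIT receptor, in the high and *Cxcl12* in the low barcodes. The whole list summed to 1511 CPM in the high and 3414 CPM in the low barcodes of IgG and to 1702 and 2174 CPM in Ang2 Ab. Some ligand genes outside that list, chosen after their values were seen, had more UMIs in the contractile-high barcodes. *Angpt1*, the Tie2 ligand (chr15:42424723-42676977, minus strand), had 26 UMIs in the high and 1 in the low barcodes of IgG, in 12 of 27 and 1 of 29 of them, and 37 and 1 in Ang2 Ab, in 14 of 38 and 1 of 31. *Pdgfa*, a PDGF ligand, stood at 456 against 134 CPM in IgG and 447 against 192 in Ang2 Ab. *Pdgfb* had 25 UMIs in the high and 0 in the low barcodes of IgG and 37 and 1 in Ang2 Ab. Also higher were *Nrip2* (123 and 3 UMIs in IgG, 126 and 3 in Ang2 Ab), *Tesc* (93 and 1, 106 and 0), *Id4*, an inhibitor of basic helix-loop-helix factors (62 and 3, 73 and 3), and *Sorbs2*, an actin adaptor (59 and 0, 108 and 3). *Pi15*, a peptidase inhibitor gene, had 58 and 65 UMIs in the high and 0 in the low barcodes, at least 11.6- and 12.4-fold against a floor of 3 UMIs in the low set of each library. *Nrarp*, a target and inhibitor of Notch signaling, was 4.29- and 9.57-fold higher, while *Notch3* stood at 871 against 828 CPM in IgG and 1019 against 726 in Ang2 Ab.

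Between the antibodies, few genes of the mural barcodes passed 2-fold at the main settings. Of 4304 genes with at least 100 UMIs in the mural barcodes of both libraries together, 9 (0.209%) were at least 2-fold higher in Ang2 Ab and 13 (0.302%) at least 2-fold lower, with a median log2 ratio of 0.04 over all 4304. Over 20% of the UMIs lay in 1 barcode for 2 of the 9 and 10 of the 13. Of the lower genes, 4 were haemoglobin genes, whose UMIs in IgG lay mostly in the 1 barcode described above. The counts depended on the settings. By the mean of the barcodes' own CPM 26 genes were higher, and without the 5% deepest mural barcodes 2 were. At up to 2 *Col1a2* UMIs, 15 of 866 genes were higher and 30 lower. With 1 library each, all values between the antibodies are ratios without a replicate check, given with exact conditional 95% intervals for the counting error.

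**Figure D4:**
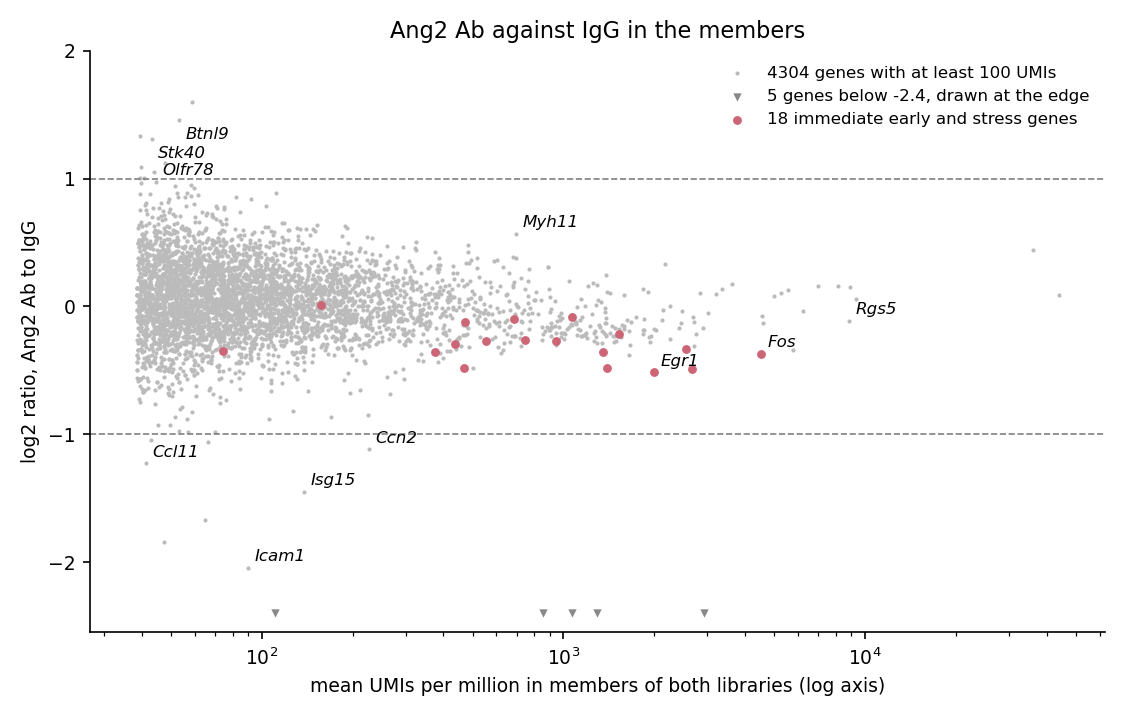
Log2 ratio of Ang2 Ab to IgG in the mural barcodes (members) against mean CPM (log axis), 1 point per gene for 4304 genes, with the 18 immediate early and stress genes in red and dashed lines at 2-fold. Points past the lines are few (9 above, 13 below), and 17 of the 18 red points lie below 0.

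Of the markers that the rule did not use, *Rgs5* had a ratio of 0.926 (0.902 to 0.950), 0.856 in the endothelial-poor barcodes and 1.05 at up to 2 *Col1a2* UMIs, and *Notch3* one of 1.24 (1.12 to 1.37), 1.07 in the endothelial-poor barcodes. The rule used the 4 genes *Pdgfrb*, *Kcnj8*, *Abcc9* and *Vtn* in both libraries, which constrains their levels, so their ratios of 1.06, 0.826, 0.980 and 0.901 (1.14, 0.881, 1.04 and 0.856 in the endothelial-poor barcodes) are a description only. At up to 2 *Col1a2* UMIs *Kcnj8* turned to 1.49 and *Vtn* to 1.24. Summed over the list, the pericyte genes outside the rule had a ratio of 0.958 (median log2 ratio 0.01, range −0.53 to 0.42), and 11 of 20 were above 1, beside 2402 of all 4304. The potassium and calcium channel genes, which include *Kcnj8* and *Abcc9*, had one of 0.979, with 5 of 10 above 1. In the endothelial-poor barcodes these sums had ratios of 0.899 and 1.03, and in the other kept barcodes 1.17 and 1.55. None of these genes passed 2-fold in the mural barcodes.

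The contractile genes had a summed ratio of 1.04, 0.988 in the endothelial-poor barcodes. Of them, 8 of 14 were above 1, beside 2402 of all 4304 genes, with a median log2 ratio of 0.11. Among these 14, which had at least 100 UMIs each, *Myh11* lay farthest from 1. It stood at 560 CPM in IgG and 832 CPM in Ang2 Ab, a ratio of 1.48 (1.35 to 1.63). Its median was 1 UMI per barcode in IgG (range 0 to 71) and 2 in Ang2 Ab (range 0 to 173), so the ranges overlapped, and 1 Ang2 Ab barcode held 173 of the 1042 UMIs. Without it the ratio was 1.25 (1.13 to 1.38). In the endothelial-poor barcodes the ratio was 1.59 (1.41 to 1.80), or 1.24 (1.09 to 1.41) without that barcode. *Acta2* had 2493 and 2437 CPM and medians of 8 and 4 UMIs, with ratios of 0.978 over all mural and 0.915 over the endothelial-poor barcodes. Its ratio turned to 1.45 at up to 5% mitochondrial UMIs and to 1.58 at up to 2 *Col1a2* UMIs.

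Of the angiopoietin system, the mural barcodes held ligand transcripts in small numbers. *Angpt2*, which encodes the target of the antibody, stood at 75.8 CPM in IgG (101 UMIs, in 50 of 109 barcodes) and 113 CPM in Ang2 Ab (142 UMIs, in 66 of 122), a ratio of 1.5 (1.15 to 1.95). The ratio was 1.11 (0.791 to 1.57) in the endothelial-poor barcodes and 3.87 (3.72 to 4.01) in the other kept barcodes, where the level went from 99.9 to 386 CPM. At up to 2 *Col1a2* UMIs it was 6.43 in the mural barcodes. *Angpt1* had 32 UMIs in 17 barcodes of IgG and 54 in 26 of Ang2 Ab, a ratio of 1.80 (1.14 to 2.87), and with under 100 UMIs it was not among the 4304 genes. In the endothelial-poor barcodes its ratio was 1.32 (0.788 to 2.26). The PDGF ligands and receptors had a summed ratio of 1.09 and the Notch genes one of 1.10, or 1.12 and 1.07 in the endothelial-poor barcodes. The basement membrane genes had a summed ratio of 1.04, 0.983 in the endothelial-poor barcodes. Of them, 13 of 17 were above 1, beside 2402 of all 4304 genes, with a median log2 ratio of 0.14.

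The immediate early and stress genes, which cell dissociation is known to induce, stood at lower levels in Ang2 Ab. Of the 18, 17 had a ratio below 1, beside 1902 of all 4304 genes, and 0 passed 2-fold. The 18 had a median log2 ratio of −0.32 beside 0.04 for all genes. Their summed level was 24637 CPM in IgG and 19359 CPM in Ang2 Ab, a ratio of 0.786 (0.773 to 0.799). *Fos*, a subunit of the AP-1 transcription factor, had a median of 40 UMIs per barcode in IgG (range 0 to 466) and 10 in Ang2 Ab (range 0 to 393), a ratio of 0.775, and 0.807 in the endothelial-poor barcodes. *Egr1*, a zinc finger factor, had medians of 17 and 3.5 UMIs and a ratio of 0.699, and 0.512 in the endothelial-poor barcodes. The other kept barcodes had a summed ratio of 0.774 and the endothelial-poor mural barcodes one of 0.722. The classes of mural barcodes differed in it, with ratios of 0.958 in the endothelial-rich, 0.916 in the contractile-high and 0.484 in the contractile-low barcodes. For the 15 and 19 barcodes between the endothelial-poor and endothelial-rich, no ratio was taken, so the lower level is not shown to belong to 1 class. The antibody and the library cannot be told apart here.

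The list of interferon response and antigen presentation genes had a summed ratio of 0.789 over its 14 genes, against 0.835 in the endothelial-poor and 0.930 in the other kept barcodes. Of the 9 that reached 100 UMIs, 7 were below 1, beside 1902 of all 4304, and 1 was past 2-fold. That gene was *Isg15*, which encodes a ubiquitin-like interferon-induced protein, with 270 UMIs in 48 barcodes of IgG and 93 in 37 barcodes of Ang2 Ab, a ratio of 0.366 (0.286 to 0.465). In IgG, 1 barcode held 70 of these UMIs, without which the ratio was 0.482 (0.373 to 0.619). The endothelial-rich barcodes held 206 and 69 of the UMIs and the endothelial-poor 51 and 21. The ratio was 0.388 (0.221 to 0.656) in the endothelial-poor barcodes, 0.559 (0.308 to 0.991) without the barcode highest there, and 0.770 (0.731 to 0.811) in the other kept barcodes. *Ifitm3*, an interferon-induced membrane protein gene, had a ratio of 0.769 and *Bst2*, the tetherin gene, 0.637, or 0.764 and 0.735 in the endothelial-poor barcodes.

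Of the remaining genes at the low end, *Ccn2*, a secreted matricellular protein gene also called CTGF, had 413 UMIs in 49 barcodes of IgG and 179 in 52 barcodes of Ang2 Ab, a ratio of 0.461 (0.385 to 0.551). The highest barcodes held 60 and 25 UMIs, and the median was 0 in both. Without the barcode with 60 UMIs the ratio was 0.536 (0.445 to 0.643). It was 0.583 (0.446 to 0.761) in the endothelial-poor barcodes, 0.956 (0.708 to 1.29) without that same barcode, and 1.67 (1.62 to 1.71) in the other kept barcodes. *Ccl11*, the eotaxin gene, had 77 UMIs in 22 barcodes of IgG and 31 in 15 of Ang2 Ab, a ratio of 0.428. Its ratio was 0.460 in the endothelial-poor barcodes, where the classes went opposite ways. From IgG to Ang2 Ab it went from 116 to 32.8 CPM in the contractile-high and from 37.6 to 51.9 CPM in the contractile-low barcodes. *Bhlhe40*, a transcription factor gene, had a ratio of 0.544, and 0.385 in the endothelial-poor barcodes. *Gadd45g*, a stress response gene, had a ratio of 0.550 over all mural barcodes and of 1.00 in the endothelial-poor ones. *Mt2*, a metallothionein gene, had a ratio of 0.550, and 0.463 in the endothelial-poor barcodes. Over all mural barcodes its ratio became 0.270 at up to 5% mitochondrial UMIs and 1.70 at up to 2 *Col1a2* UMIs. The adhesion molecule gene *Icam1* had a ratio of 0.243, but over 20% of its UMIs lay in 1 barcode.

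**Figure D5:**
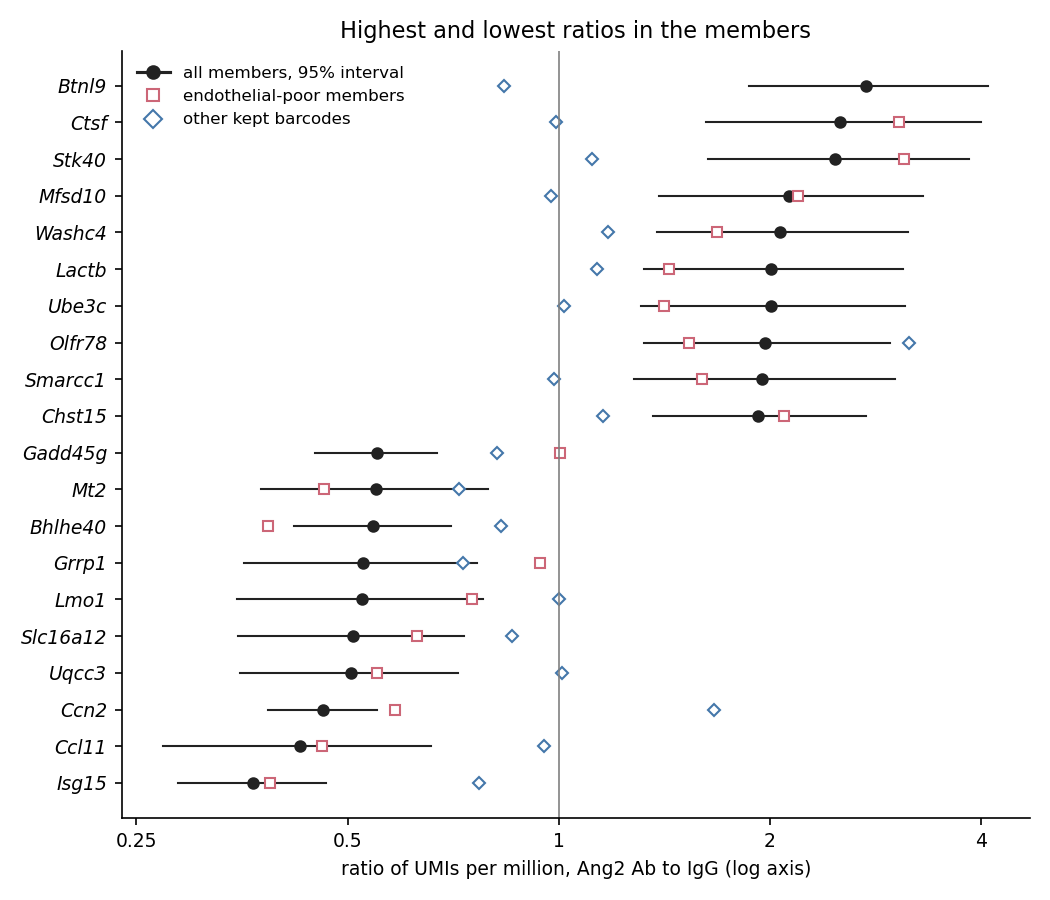
Ratio of Ang2 Ab to IgG (log axis) for the 10 highest and 10 lowest genes of which no mural barcode (member) held over 20% of the UMIs, with exact 95% intervals for counting error (black), in the endothelial-poor mural barcodes (squares) and in the other kept barcodes (diamonds). *Btnl9* has no square because it was at 0 in the endothelial-poor Ang2 Ab barcodes, and *Ccn2* lies below 1 in the mural barcodes (0.461) and above 1 in the others (1.67).

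At the high end, *Btnl9*, a butyrophilin-like gene, had 38 UMIs in IgG and 98 in Ang2 Ab, a ratio of 2.74 (1.87 to 4.10). All but 3 of the IgG and all of the Ang2 Ab UMIs lay in the endothelial-rich barcodes, and its ratio in the other kept barcodes was 0.836. *Ctsf*, the lysosomal protease cathepsin F, had 30 UMIs in 21 barcodes of IgG and 71 in 48 barcodes of Ang2 Ab, a ratio of 2.52, and 3.06 (1.57 to 6.42) in the endothelial-poor barcodes. *Stk40*, a protein kinase gene, had 33 UMIs in 25 barcodes and 77 in 52, a ratio of 2.48, and 3.11 (1.49 to 7.06) in the endothelial-poor barcodes. No barcode held more than 5 UMIs of either gene. *Apln*, a peptide ligand gene of endothelial tip cells, had a ratio of 3.03 with 39 and 111 UMIs, and over 20% of these lay in 1 barcode. The endothelial-rich barcodes held 36 and 107 of them, and the endothelial-poor 3 and 3 (6.03 and 5.68 CPM). The ratio in the other kept barcodes was 2.80 (68.5 and 192 CPM).

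In the endothelial-poor barcodes alone, 1738 genes had at least 100 UMIs. In Ang2 Ab, 2 (0.115%) were at least 2-fold higher and 12 (0.69%) at least 2-fold lower. Several of the 12 rested on single barcodes, and 5 had over 20% of their UMIs in 1. *Cxcl10*, a chemokine gene, had 104 and 26 UMIs and a ratio of 0.235, but 1 IgG barcode held 88 of them and the ratio without it was 1.49 (0.772 to 2.98). *Ccl2*, a chemokine gene, had 109 and 43 UMIs and a ratio of 0.371, or 0.775 (0.504 to 1.19) without the barcode that held 58. *Eln*, the elastin gene, had 203 and 100 UMIs and a ratio of 0.464, or 0.798 (0.604 to 1.05) without the barcode that held 87. The counts of *Cxcl1*, a chemokine gene (343 and 172 UMIs, 0.472), and *Klf2*, a transcription factor gene (446 and 229, 0.483), were less concentrated, with ratios of 0.584 (0.479 to 0.709) and 0.557 (0.470 to 0.659) without the highest barcode. Over all mural barcodes their ratios were 0.864 and 0.715. In the endothelial-rich barcodes *Cxcl1* went the other way, from 249 CPM in IgG to 421 CPM in Ang2 Ab, and *Klf2* went from 2334 to 1985 CPM. With each gene's highest barcode left out, 1 of the 2 higher and 2 of the 12 lower genes were still past 2-fold. Of the 14 genes, 0 of the higher and 2 of the lower ones were also past 2-fold over all mural barcodes.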

How the data were processed

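The authors deposited 1 matrix of whole-number UMI counts per library (10x, 32285 genes, GRCm38/mm10). The matrix headers name Cell Ranger 6.0.2, the submitters' processing notes 2.1.1. No value was normalized before deposit. The 8 plates of single sorted lymphatic ECs in the series were not used. The mural barcodes, gene lists and tests were chosen with earlier results of these data known.

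Counts were summed over barcodes and divided by the summed UMIs of the set (CPM). Intervals are exact at 95% (Poisson for CPM, Clopper-Pearson for shares, conditional binomial for ratios) and treat UMIs as independent. With 1 library per condition a gene was counted as past the limit at 2-fold, from 100 UMIs in both libraries together. Named were the rule genes and given markers, the 20 highest folds against the other kept barcodes (at least 50 UMIs in each library), the 10 highest and 10 lowest ratios between antibodies (no barcode with over 20% of the UMIs, and no mitochondrial, ribosomal or sex-linked gene), and the 4 most abundant genes of each list. Genes outside it, among them those of the contractile split and of the endothelial-poor barcodes, were chosen after their values were seen. The summed ratio of a list weights genes by their UMIs. Coordinates are those of GENCODE M21 for GRCm38. No doublet caller was run. Python 3.11.15, numpy 2.4.6, scipy 1.17.1 and matplotlib 3.10.9 were used, and the ratio step was tested on simulated data. The values of 1 gene are not reported here.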

Additional observations from a re-analysis of the deposited data

How the results depend on the processing

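The share of mural barcodes was higher in Ang2 Ab than in IgG under each of the 8 alternatives that changed which barcodes counted. At a mural sum of at least 10, the Ang2 Ab share was 3.0%, its endothelial markers stood at 1986 CPM, and 5 genes were past 2-fold higher. At up to 5% mitochondrial UMIs, the shares were 2.39% and 2.82% and the endothelial markers 2918 and 3420 CPM, and 2 of 11 higher and 7 of 12 lower genes were shared with the report. At up to 2 *Col1a2* UMIs, the shares were 0.902% and 1.18%, the markers 3736 and 2713 CPM, and of only 866 genes tested 15 were higher and 30 lower, of which 0 and 4 were also past 2-fold in the report. In endothelial-poor barcodes only, the shares were 1.63% and 2.33%, the markers 101 and 106 CPM by construction, and 2 genes were higher. Without the 5% deepest mural barcodes, the markers stood at 2025 and 1986 CPM and 2 genes were higher. The mean of the barcodes' own CPM gave 26 higher. From 50 UMIs, 42 genes were higher and 36 lower, and from 1 UMI 2015 and 1765, as fewer UMIs admit more genes. The other alternatives kept the counts within 1.5 times and the shares within their intervals. *Hba-a1*, *Hba-a2* and *Hbb-bs* turned to ratios of 1.45, 1.14 and 1.09 in endothelial-poor barcodes. In 2 alternatives chosen after seeing the data, 7 genes were higher and 15 lower without the haemoglobin-rich IgG barcode, and *Rgs5* was 136- and 93.6-fold higher than in kept barcodes with no UMI of the rule genes. Without the barcode that held most of each, also chosen after seeing the data, the endothelial-poor ratios of *Cxcl10* and *1520401A03Rik* turned to 1.49 and 2.47. Of the named genes' ratios, 41 of 117 moved out of their intervals at up to 5% mitochondrial UMIs, 48 of 117 in endothelial-poor barcodes only, where 3 more turned, and 77 of 116 at up to 2 *Col1a2* UMIs, where *Angpt2* had 6.43, *Acta2* 1.58, *Kcnj8* 1.49, *Ccn2* 0.261 and *Isg15* 0.214. *Stk40* had 4.30 by the mean of the barcodes' own CPM. No paired analysis was possible because each condition has 1 library. Leaving out a replicate was not possible for the same reason.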
